A study of Rattus norvegicus with 8 samples.

Results

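Cytochrome P450 enzymes are haem proteins of the endoplasmic reticulum and mitochondria that insert an oxygen atom into fatty acids, sterols, retinoids, vitamin D and foreign compounds. Most draw their electrons from the reductase Por, and the mitochondrial ones from the adrenodoxin system of Fdxr and Fdx1. In the kidney the proximal tubule is rich in the Cyp4a enzymes, which turn arachidonic acid into vasoactive and natriuretic hydroxylated products, while Cyp2j and Cyp2c enzymes make epoxides from the same substrate. The genes were chosen by name: every non-control probe whose RefSeq accession carries a symbol of the form Cyp, family number, subfamily letter and gene number, with Cyp24a1 and Cyp27b1 left out. This gave 62 genes with 73 probes, of 14400 named genes and 41012 probes on the array, among them 28 genes of the Cyp2 family, 12 of the Cyp4 family and 22 of other families. Cyp51, whose symbol has no subfamily letter, is not among them.

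The samples were right kidneys of female F344/NSlc rats aged 10 weeks, 4 taken after removal of the opposite kidney (nephrectomized) and 4 after a sham operation, each on its own 1-colour Agilent array. The design text gives 2 days after surgery for sampling, but the source names give 2 days for nephrectomized and 1 day for sham kidneys, so operation and day cannot be told apart if the source names are right. The labels list the samples as separate without naming animals, and the p-values below cover the spread among these 8 samples alone, which may be technical. Between 59.5% and 66.1% of probes were well above background on an array, no spot was saturated, and the 75th percentile of the processed signal lay between 388 and 643. The arrays lay on 2 slides, each with 2 nephrectomized and 2 sham arrays. Nephrectomized arrays always held positions 3 and 4, and sham arrays positions 1 and 2, so position and group cannot be told apart. Values below are log2 signals relative to the array's own 75th percentile, called scaled log2 signal. They compare arrays for 1 probe and do not rank genes against each other.

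The labelled tissue showed its defining transcripts, with the proximal tubule markers Slc34a1, Lrp2, Slc5a2 and Aqp1 and the thick limb marker Umod well above background on all 8 arrays. None of the 7 tested proximal tubule markers passed the test described below (median log2 change -0.03), and their summed signal, in multiples of the 75th percentile, was 492 to 584 in nephrectomized and 514 to 599 in sham kidneys. Of the 5 macrophage and neutrophil markers, 3 were lower in nephrectomized kidneys (S100a8, S100a9 and Adgre1), with summed signals of 3.30 to 3.72 in nephrectomized and 4.41 to 4.97 in sham kidneys. In whole kidney RNA, fewer cells of a type and less RNA per cell cannot be told apart.

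The first 250 bases before the RefSeq start (assembly GRCr8) are shown for 4 of the 62 genes. Cyp2f4 and Cyp26b1 are the P450 genes with the smallest p between the groups. Cyp4a2 and Cyp4a3 are neighbouring genes of near-identical sequence, and are shown because near-identical copies can share signal on an array. Capitals mark the core of the aryl hydrocarbon receptor element, GCGTG.

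Cyp2f4, chr1:91543518-91543767, plus strand: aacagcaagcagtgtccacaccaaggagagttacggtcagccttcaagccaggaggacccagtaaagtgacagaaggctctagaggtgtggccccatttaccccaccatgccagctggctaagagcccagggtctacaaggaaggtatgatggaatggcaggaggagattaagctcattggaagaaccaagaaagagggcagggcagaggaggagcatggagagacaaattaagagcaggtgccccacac
Cyp26b1, chr4:118616177-118616426, minus strand: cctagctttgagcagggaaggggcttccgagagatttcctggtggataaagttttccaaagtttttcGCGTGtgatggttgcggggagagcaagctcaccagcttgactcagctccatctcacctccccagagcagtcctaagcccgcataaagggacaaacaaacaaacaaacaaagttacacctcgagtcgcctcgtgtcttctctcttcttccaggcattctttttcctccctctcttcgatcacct
Cyp4a2, chr5:134170909-134171158, minus strand: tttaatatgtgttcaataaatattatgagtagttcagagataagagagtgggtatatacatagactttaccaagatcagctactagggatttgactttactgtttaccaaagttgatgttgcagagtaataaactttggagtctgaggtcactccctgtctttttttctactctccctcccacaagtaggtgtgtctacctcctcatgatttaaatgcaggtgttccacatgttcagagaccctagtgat
Cyp4a3, chr5:134352237-134352486, minus strand: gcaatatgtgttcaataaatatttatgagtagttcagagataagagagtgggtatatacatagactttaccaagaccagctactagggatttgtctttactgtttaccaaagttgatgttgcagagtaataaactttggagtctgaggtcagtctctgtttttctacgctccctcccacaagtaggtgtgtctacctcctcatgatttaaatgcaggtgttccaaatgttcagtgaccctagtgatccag

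The Cyp4a2 and Cyp4a3 stretches were identical at 236 of 245 aligned bases, whereas Cyp2f4 and Cyp26b1 matched at 111 of 233. Promoters were matched for 48 of the 62 genes. On both strands of these windows, GCGTG occurred in 12 of the 48 P450 promoters and in 25.9% of all 33469 promoters. The D-box TTATGTAA of the PAR bZIP factors occurred in 2 of 48 (Cyp2b2 and Cyp2g1) against 0.828% of all promoters. The E-box CACGTG occurred in 1 (Cyp2j4) against 5.59% of all, and the DR1 direct repeat of PPAR and HNF4 in none against 0.0508%. These motifs do not overlap each other in the 4 sequences shown, where the single match lay 183 bases before the start of Cyp26b1.

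Of the 62 genes, 32 were tested because their probe passed the background criterion on 4 or more of the 8 arrays, and 28 of these were above background on all 8. The tested genes were 13 of 28 in the Cyp2 family, 10 of 12 in the Cyp4 family and 9 of 22 in other families. Another 23 were above background on no array. They included the adrenal steroid hydroxylases Cyp11b1, Cyp11b2 and Cyp21a1, the oestrogen-forming aromatase Cyp19a1, and Cyp7a1 and Cyp8b1 of hepatic bile acid synthesis. Cyp1a2, Cyp3a2 and Cyp2c12, the last known as a female-dominant enzyme of rat liver, were also among these 23. The other 7 were above background on 1 to 3 arrays.

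**Figure D1:**
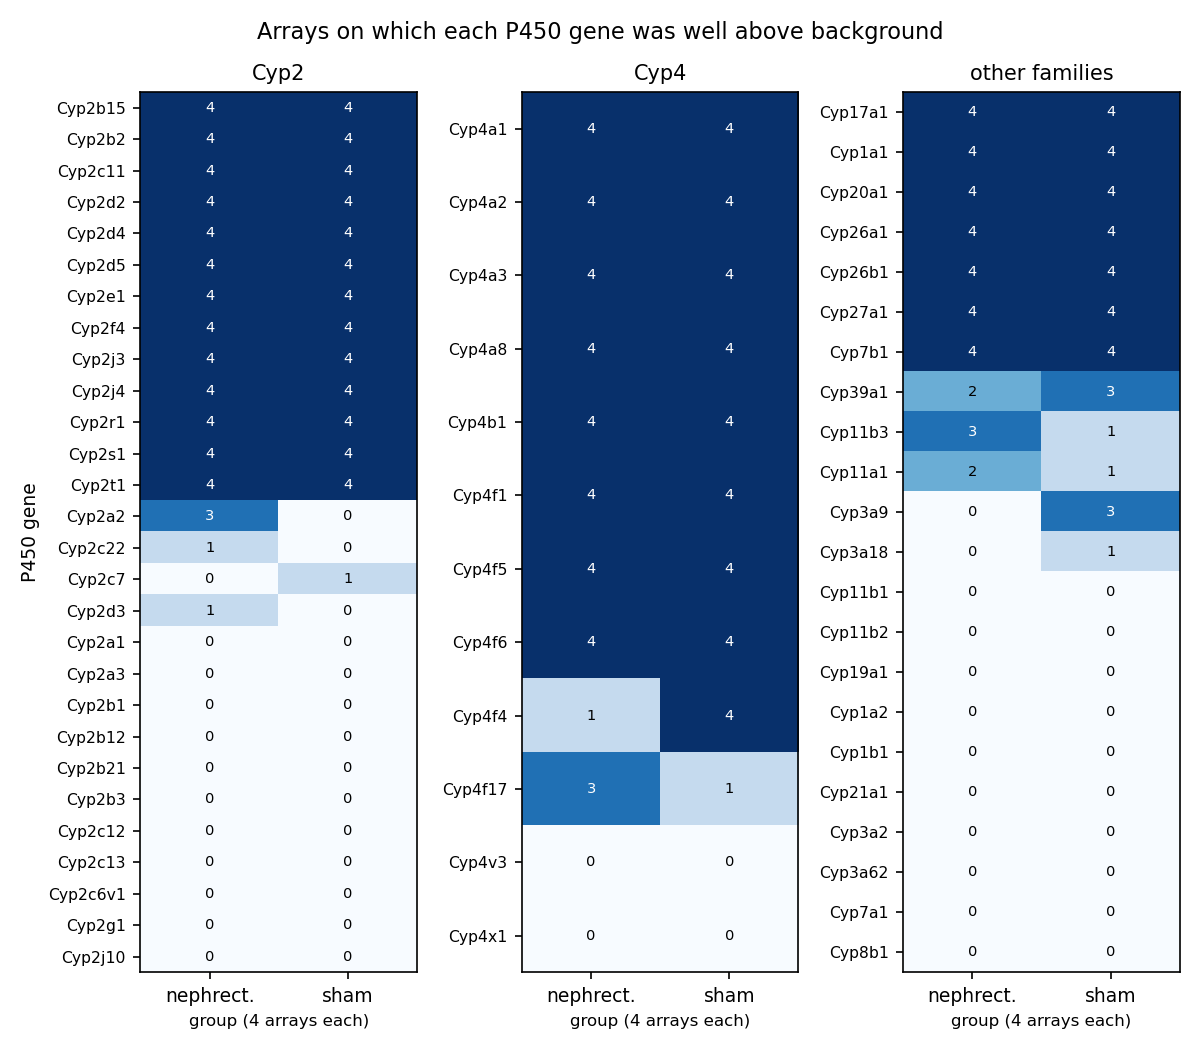
Number of arrays, of 4 nephrectomized (left column of each panel) and 4 sham (right column), on which each of the 62 P450 genes was well above background, by family. Most genes were at 4 in both groups or at 0 in both, and Cyp2a2, Cyp3a9, Cyp4f4, Cyp4f17 and Cyp11b3 were the genes whose counts differed by at least 2 arrays.

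Of those 7 genes, Cyp2a2 and Cyp3a9 were above background on 3 arrays of a single group. Cyp2a2, known as a steroid hydroxylase of rat liver, read -4.79, -2.23, -4.06 and -4.56 in nephrectomized kidneys, against -5.91, -4.42, -5.50 and -4.87 in sham kidneys, where it was above background on no array. The means were -3.91 in nephrectomized and -5.17 in sham kidneys, and nephrectomized replicate 2 was far brighter than the rest. Cyp3a9, a rat Cyp3a form, read -5.11, -6.62, -6.57 and -6.64 in nephrectomized kidneys, on no array above background, against -3.76, -3.44, -6.44 and -4.21 in sham kidneys. The means were -6.24 in nephrectomized and -4.46 in sham kidneys, and sham replicate 3 lay among the nephrectomized values. Neither gene met the filter for testing, and no fold is given against a group in which the probe was not well above background.

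With limma fitted on all 20935 features, 0 of the 32 tested P450 genes passed a Benjamini-Hochberg adjusted p under 0.05, against 1.04% of all features (0.75% higher and 0.287% lower in nephrectomized kidneys). An unadjusted p under 0.05 was reached by 7 P450 genes (21.9%), against 16% of all features. Of these, 3 had positive log2 changes (nephrectomized minus sham), with 9.74% of all features, and 4 negative ones, with 6.3%. Nephrectomized and sham values did not overlap for 7 of the 32, against 11.1% of all features. Both counts include Cyp4f4, which passed the filter only because its sham signals were above background. Among the 28 genes above background on all 8 arrays, 6 had an unadjusted p under 0.05 and 6 had groups without overlap. The matching shares over all features above background on all 8 arrays were not counted, so these counts have no background beside them. The median log2 change was -0.06 over the P450 genes and 0.01 over all features, -0.08 in the Cyp2 family, -0.08 in the Cyp4 family and 0.18 in the other families. Negative values were found in 9 of 13 Cyp2 genes, 7 of 10 Cyp4 genes and 3 of 9 others, and in 47.5% of all features, and the families were not tested against each other. For 25 of the 32 genes the 95% interval lay within 1 of 0 on the log2 scale. Alternative settings called between 0 and 2 P450 genes, always among Cyp2f4, Cyp2e1 and Cyp26b1.

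**Figure D2:**
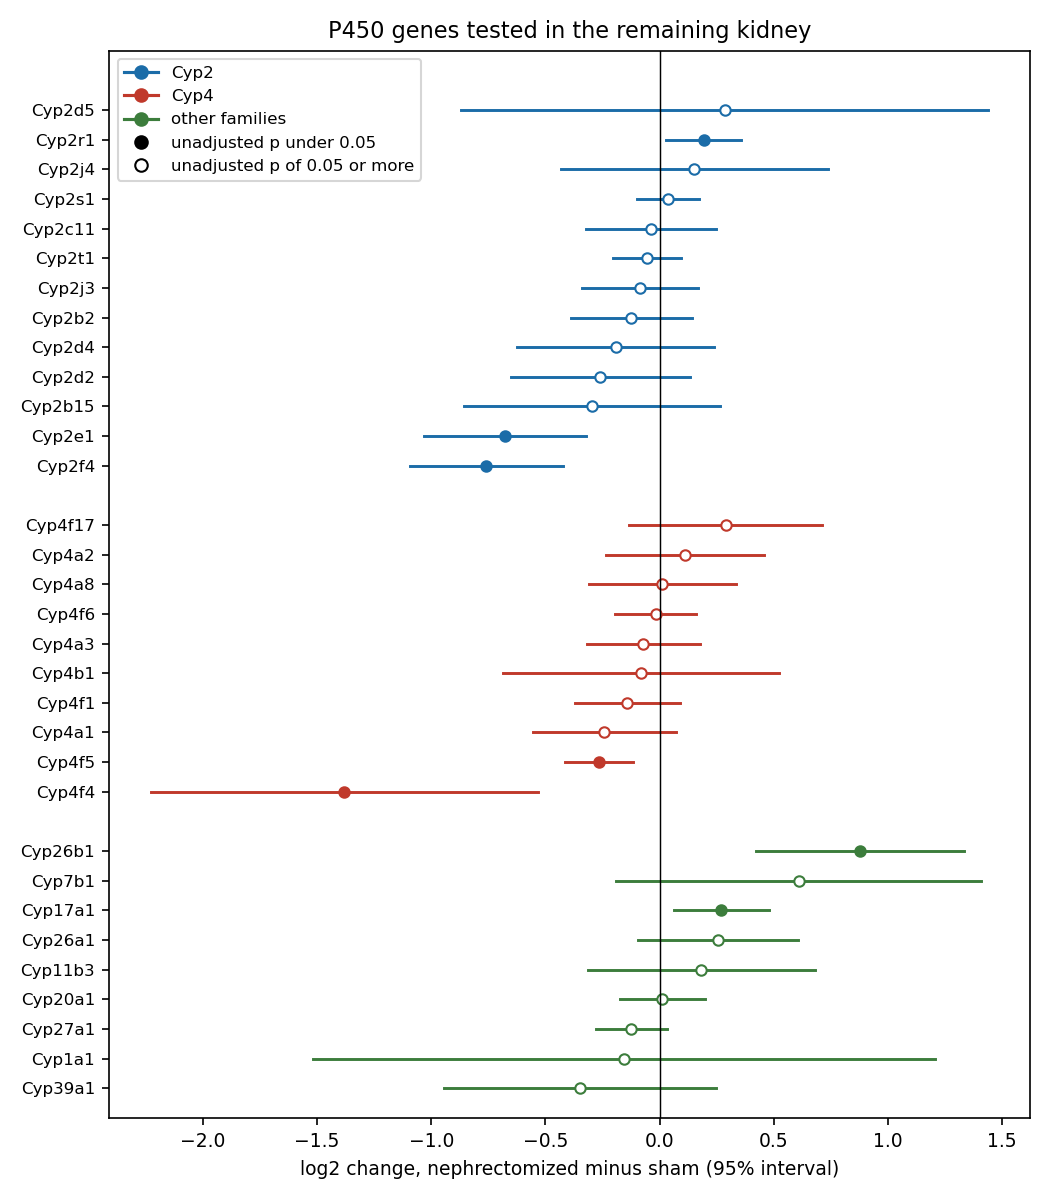
Log2 change, nephrectomized minus sham, of the 32 tested P450 genes with limma's 95% interval, by family. Filled points have an unadjusted p under 0.05. Cyp2f4, Cyp2e1, Cyp4f5 and Cyp4f4 lie left of 0 and Cyp26b1, Cyp17a1 and Cyp2r1 right of it, and the remaining intervals cross 0.

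Among enzymes of foreign compounds, Cyp2f4 and Cyp2e1 had the smallest p. Cyp2f4, known from rat lung for activating naphthalene, read 0.31, -0.15, 0.39 and -0.03 in nephrectomized kidneys, against 1.12, 0.64, 0.85 and 0.95 in sham kidneys. All 4 nephrectomized values lay below the sham values. The log2 change was -0.76 ± 0.15 (SE; limma adjusted p = 0.0545), a 1.69-fold lower signal in nephrectomized kidneys. It was -0.80 on slide 1 and -0.72 on slide 2, and with slide as a block the adjusted p was 0.0796.

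Cyp2e1, which oxidises ethanol, acetone and other small molecules, read 5.54, 5.08, 5.38 and 5.25 in nephrectomized kidneys, against 6.36, 5.85, 5.69 and 6.06 in sham kidneys. The groups again did not overlap, and sham replicate 3 came nearest to the nephrectomized values. Its log2 change was -0.68 ± 0.15 (SE; limma adjusted p = 0.0813), with a 95% interval of -1.03 to -0.32. The change was -0.80 on slide 1 and -0.56 on slide 2, with an adjusted p of 0.109 with slide as a block.

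The aryl hydrocarbon receptor target Cyp1a1 varied more within groups than any other tested P450 gene, reading -3.15, -2.42, -3.58 and -5.03 in nephrectomized kidneys, against -3.45, -3.83, -4.13 and -2.15 in sham kidneys. The groups overlapped throughout, and the log2 change was -0.15 ± 0.60 (SE; limma adjusted p = 0.931), positive on slide 1 at 0.85 and negative on slide 2 at -1.16. Cyp1b1, another target of this receptor, was above background on no array. Phenobarbital-inducible Cyp2b2 was at -0.12 ± 0.12 and Cyp2b15 at -0.30 ± 0.25 (SE). The other Cyp2b2 probes were above background on at most 1 array, with log2 differences between 0.02 and 0.55, so the sign rests on the 1 bright probe.

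The rat Cyp2d enzymes, which oxidise many drugs, had overlapping groups. Cyp2d2 read 0.31, 0.11, 0.25 and 0.15 in nephrectomized kidneys, against 0.71, 0.09, 0.19 and 0.87 in sham kidneys, with a log2 change of -0.26 ± 0.17 (SE). Cyp2d4 read 0.33, 0.41, 0.31 and -0.08 in nephrectomized kidneys, against 0.78, -0.02, 0.28 and 0.69 in sham kidneys (-0.19 ± 0.19, SE). In both genes sham replicates 1 and 4 were the highest of the 8. Cyp2d5 read -0.27, 0.27, -0.88 and -1.89 in nephrectomized kidneys, against -0.57, -1.42, -1.76 and -0.16 in sham kidneys (0.28 ± 0.50, SE). Its values ran over more than 2 log2 units within the nephrectomized group alone. These paralogues are alike in sequence, and whether a probe also reads its relatives was not tested.

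**Figure D3:**
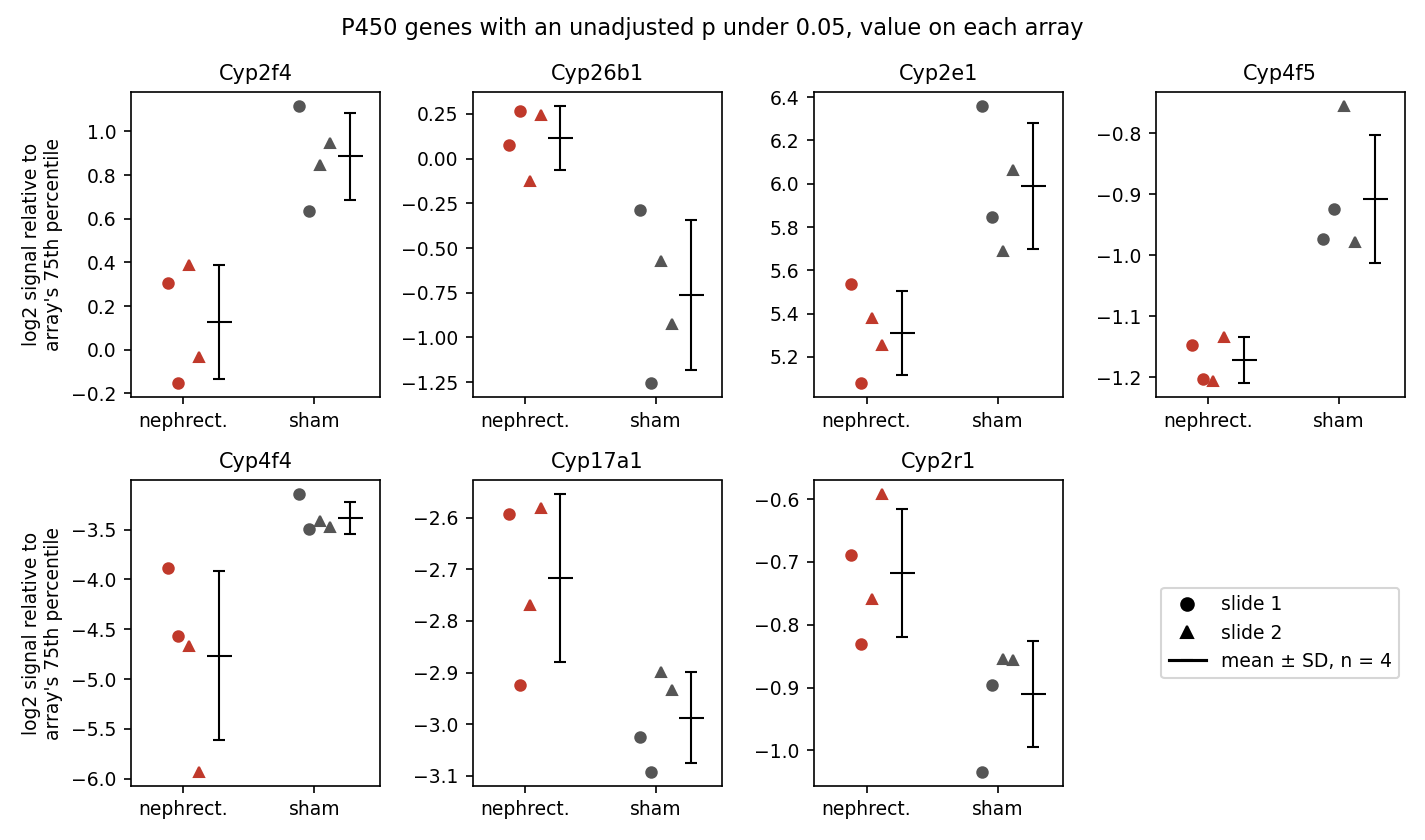
Scaled log2 signal on each array for the 7 P450 genes with an unadjusted p under 0.05, nephrectomized at left and sham at right of each panel, with circles for slide 1, triangles for slide 2, and mean ± SD (n = 4). The groups do not overlap except for Cyp17a1, where nephrectomized replicate 2 at -2.92 lies below the highest sham value of -2.90.

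The retinoic acid hydroxylases had positive values. Cyp26b1, which clears retinoic acid, read 0.08, 0.26, -0.12 and 0.24 in nephrectomized kidneys, against -0.29, -1.26, -0.57 and -0.93 in sham kidneys. All 4 nephrectomized values lay above the sham values, which were the more spread. The log2 change was 0.88 ± 0.20 (SE; limma adjusted p = 0.0787), or 1.84-fold, with 0.94 on slide 1, 0.81 on slide 2 and an adjusted p of 0.113 with slide as a block. Its relative Cyp26a1 read -2.58, -2.49, -3.05 and -2.85 in nephrectomized kidneys, against -2.68, -3.20, -3.14 and -2.98 in sham kidneys, with overlap (0.26 ± 0.15, SE; adjusted p = 0.456). Of 12 tested genes of retinoid handling none passed the test, against 1.04% of all features. Of the 12, 4 were positive, against 52.5% of all features, and the median was -0.09. The retinal dehydrogenase Aldh1a1 was at -0.39 ± 0.19 (SE; adjusted p = 0.360). The retinal reductase Dhrs3 was at -0.12 ± 0.06.

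The Cyp4a omega-hydroxylases of arachidonic acid were measured on every array with signals far above background. Cyp4a1 read 3.70, 3.28, 3.51 and 3.61 in nephrectomized kidneys, against 4.07, 3.64, 3.51 and 3.85 in sham kidneys. Cyp4a2 read 2.78, 2.66, 2.70 and 2.66 in nephrectomized kidneys, against 2.58, 2.73, 2.13 and 2.92 in sham kidneys. Cyp4a3 read 7.16, 6.83, 7.06 and 6.74 in nephrectomized kidneys, against 6.99, 7.09, 6.86 and 7.15 in sham kidneys. The groups overlapped in all of these genes and also in Cyp4a8, which read 5.95, 5.88, 5.63 and 5.56 in nephrectomized kidneys, against 5.85, 5.88, 5.37 and 5.88 in sham kidneys. The log2 changes were -0.24 ± 0.14 for Cyp4a1, 0.11 ± 0.15 for Cyp4a2, -0.07 ± 0.11 for Cyp4a3 and 0.01 ± 0.14 for Cyp4a8 (SE). Their 95% intervals ran from -0.55 to 0.07, -0.23 to 0.46, -0.32 to 0.18 and -0.31 to 0.33 in that order. A change of 2-fold in either direction lay outside each interval. Because Cyp4a2 and Cyp4a3 are near-identical, their signals cannot be taken as fully separate.

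The Cyp4f subfamily, known in the rat for omega-hydroxylation of leukotriene B4 and arachidonic acid, includes Cyp4f5 and Cyp4f4. Cyp4f5 read -1.15, -1.20, -1.21 and -1.13 in nephrectomized kidneys, against -0.97, -0.92, -0.76 and -0.98 in sham kidneys. The nephrectomized values were tightly grouped and all below the sham values, with a log2 change of -0.26 ± 0.07 (SE; limma adjusted p = 0.0984). It was -0.23 on slide 1 and -0.30 on slide 2.

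Cyp4f4 read -3.89, -4.57, -4.67 and -5.93 in nephrectomized kidneys, against -3.15, -3.49, -3.42 and -3.48 in sham kidneys, and was well above background on 1 nephrectomized and all 4 sham arrays. The groups did not overlap, and nephrectomized replicate 4 was the lowest. The log2 change was -1.38 ± 0.37 (SE; limma adjusted p = 0.119), -0.91 on slide 1 and -1.85 on slide 2. Its size depended on how background was removed, with -0.24 after normexp correction with an offset of 50. Since most of its nephrectomized signals were not well above background, neither its p nor the size of the change supports a difference.

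The remaining Cyp4 genes overlapped between groups. The Cyp4f1 probe read 6.61, 6.58, 6.58 and 6.39 in nephrectomized kidneys, against 6.69, 6.80, 6.42 and 6.81 in sham kidneys (-0.14 ± 0.10, SE). Cyp4f6 was at -0.02 ± 0.08 and Cyp4f17, above background on 3 nephrectomized and 1 sham arrays, at 0.29 ± 0.18. Cyp4b1, a fatty acid and foreign compound hydroxylase, was at -0.08 ± 0.26, with 0.50 on slide 1 and -0.66 on slide 2. Leukotriene hydroxylases of this family are known in leukocytes. Of the 5 macrophage and neutrophil markers, 3 were lower in nephrectomized kidneys, as given above. The others, Cd68 at -0.11 ± 0.08 and Csf1r at -0.05 ± 0.10 (SE), overlapped between groups. The part of leukocytes in the Cyp4f values was not tested.

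Among epoxygenases, Cyp2j3 read -1.69, -1.38, -1.36 and -1.65 in nephrectomized kidneys, against -1.66, -1.41, -1.30 and -1.37 in sham kidneys (-0.08 ± 0.11, SE). Cyp2j4 read 1.13, 1.41, 0.98 and 0.34 in nephrectomized kidneys, against 0.57, 1.09, 0.40 and 1.18 in sham kidneys (0.15 ± 0.25, SE). Cyp2c11, known as a male-dominant enzyme of rat liver, read -3.57, -3.44, -3.27 and -3.55 in nephrectomized kidneys, against -3.16, -3.61, -3.28 and -3.63 in sham kidneys (-0.04 ± 0.12, SE). The groups overlapped in each of these. Cyp2j10 was above background on no array. No probe carried the symbol Cyp2c23, a gene to be given regardless of outcome, so it is not among the epoxygenases measured here. Of 10 tested eicosanoid and epoxide enzymes none passed the test, against 1.04% of all features, and the median log2 change was -0.01. The epoxide hydrolases Ephx2, which degrades these epoxides, and Ephx1 were at -0.01 ± 0.09 and -0.04 ± 0.13, Ggt1, which trims glutathione conjugates, at -0.10 ± 0.13, and Pla2g4a, the phospholipase that releases arachidonic acid, at 0.21 ± 0.07 (SE; adjusted p = 0.159).

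Of the vitamin D and sterol enzymes, Cyp2r1, which carries out the first hydroxylation of vitamin D, read -0.69, -0.83, -0.76 and -0.59 in nephrectomized kidneys, against -1.03, -0.90, -0.85 and -0.86 in sham kidneys. The groups were just apart, with a log2 change of 0.19 ± 0.07 (SE; limma adjusted p = 0.248). Cyp27a1, the mitochondrial sterol hydroxylase, read -0.93, -0.78, -0.82 and -0.79 in nephrectomized kidneys, against -0.61, -0.80, -0.64 and -0.78 in sham kidneys (-0.12 ± 0.07, SE). These overlapped.

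Cyp7b1, which hydroxylates oxysterols, read -3.24, -1.69, -3.24 and -3.27 in nephrectomized kidneys, against -3.47, -3.82, -3.32 and -3.28 in sham kidneys. The groups did not overlap, but by a margin far smaller than the distance of nephrectomized replicate 2 from the rest of its group. The log2 change was 0.61 ± 0.35 (SE; limma adjusted p = 0.438), 1.17 on slide 1 and 0.05 on slide 2. It was 0.22 without nephrectomized replicate 2. Cyp39a1, another oxysterol hydroxylase, was at -0.35 ± 0.26, and Cyp20a1, an orphan P450, read 1.63, 1.48, 1.60 and 1.47 in nephrectomized kidneys, against 1.62, 1.53, 1.34 and 1.64 in sham kidneys (0.01 ± 0.08, SE).

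Of the steroid-forming enzymes, Cyp17a1, the hydroxylase and lyase of androgen synthesis, read -2.59, -2.92, -2.77 and -2.58 in nephrectomized kidneys, against -3.02, -3.09, -2.90 and -2.93 in sham kidneys. Replicate 2 alone lay within the sham range, and the log2 change was 0.27 ± 0.09 (SE; limma adjusted p = 0.196). Cyp11a1, which cleaves the cholesterol side chain, was above background on 2 nephrectomized and 1 sham arrays, and Cyp11b3 was at 0.18 ± 0.22. The adrenal markers Mc2r, Nr5a1 and Chga were above background on no array and Dbh on 1 nephrectomized array. Of the 6 adrenal markers on the array, Akr1b7 and Th were tested and neither passed, and the summed marker signal was 0.361 to 1.03 in nephrectomized and 0.169 to 1.82 in sham kidneys. Their part in the Cyp17a1 values was not tested.

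**Figure D4:**
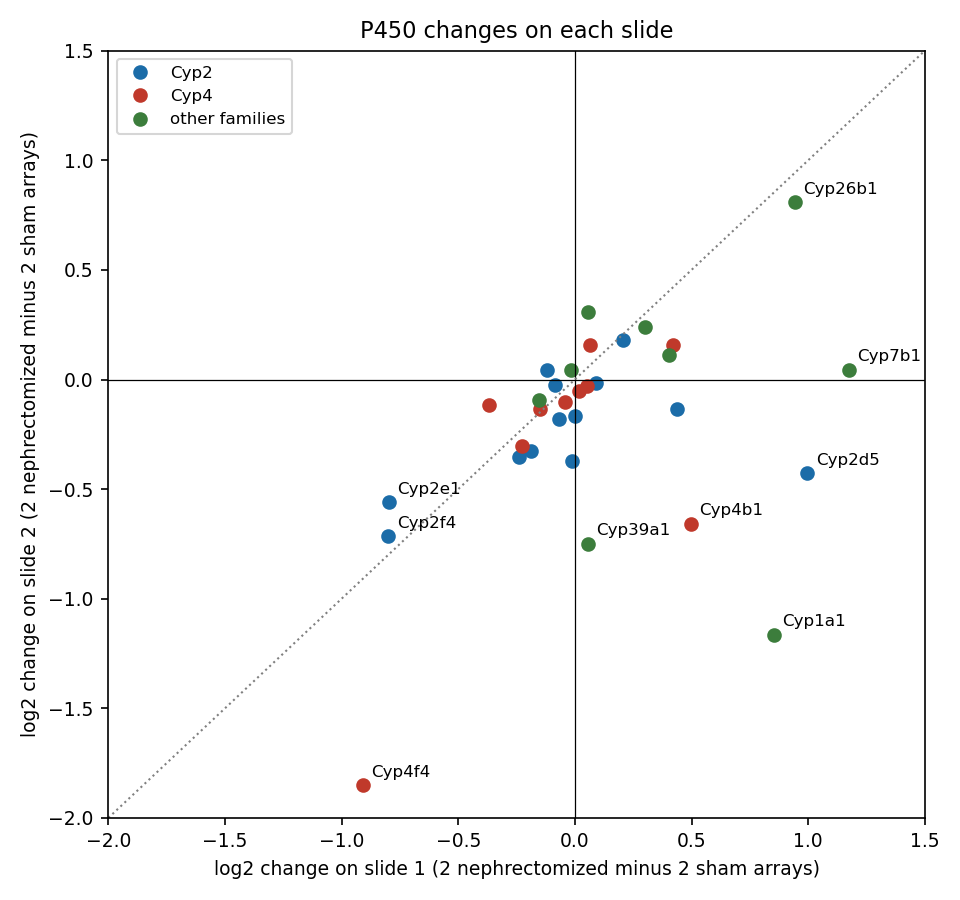
Log2 change, nephrectomized minus sham, on slide 1 (horizontal) and slide 2 (vertical), each from 2 nephrectomized and 2 sham arrays, for the 32 tested P450 genes. Cyp26b1, Cyp2e1 and Cyp2f4 lie near the dotted line of equal change, while Cyp1a1, Cyp4b1 and Cyp2d5 have opposite signs and Cyp7b1 is near 0 on slide 2.

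The sign of the change was the same on both slides for 22 of the 32 P450 genes (68.8%), against 63.7% of all features. The median P450 change was 0.01 on slide 1 and -0.11 on slide 2, and 0.01 on each slide over all features.

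The spread within a group, which holds animal and array differences together, was wide for several P450 genes. The median within-group SD was 0.24 over the P450 genes and 0.13 over all features. Cyp1a1 (SD 0.99), Cyp2d5 (0.84), Cyp4f4 (0.61) and Cyp7b1 (0.58) were the most spread, above 96.8% or more of all features, whereas Cyp2s1 (0.06), Cyp2t1 and Cyp4f5 (0.08 each) lay at or below 17.8%. In Cyp1a1, Cyp2d5, Cyp4b1 and Cyp2j4, grouped after their values were seen, nephrectomized replicate 2 was the highest and replicate 4 the lowest of their group, and sham replicate 4 was the highest of its group. The fat marker Cidec had the same order, reading -2.69, -2.03, -4.18 and -5.73 in nephrectomized kidneys, against -3.81, -4.45, -5.49 and -2.65 in sham kidneys. Cidec was well above background on only 2 nephrectomized and 2 sham arrays, so its lower values lie near background. Of the 3 fat markers on the array Lep was above background on none, and Adipoq did not share that order, reading -0.06, -0.10, -0.38 and -0.12 in nephrectomized kidneys, against -0.01, -0.41, -0.22 and -0.28 in sham kidneys. The summed fat marker signal was 0.833 to 1.19 in nephrectomized and 0.811 to 1.07 in sham kidneys, and its part in these P450 values was not tested. Nephrectomized replicate 4 gave the lowest of the 8 values in 11 of the 32 genes, against 11.9% of all features, and had the highest share of probes above background and the lowest 75th percentile of signal.

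**Figure D5:**
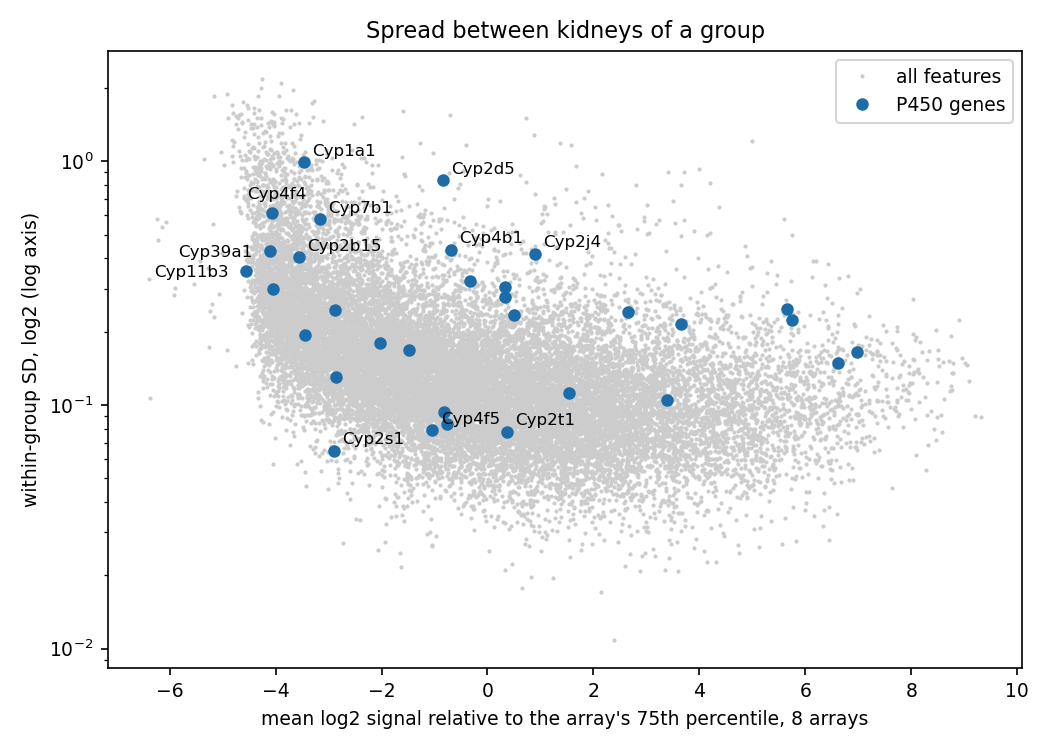
Within-group SD of the scaled log2 signal (vertical, log axis) against the mean over 8 arrays (horizontal) for 20935 features (grey) and the 32 tested P450 genes (blue). Cyp1a1 at 0.99 and Cyp2d5 at 0.84 are the most spread P450 genes and Cyp2s1 at 0.06 the least.

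Of the redox partners that feed P450 enzymes and their haem supply, 0 of 12 tested genes passed the test, against 1.04% of all features. An unadjusted limma p under 0.05 was found in 3, against 16% of all features. Of the 12, 7 were positive, against 52.5% of all features, and the median was 0.02. The reductase Por was at -0.19 ± 0.11, Cyb5a at -0.08 ± 0.11, Fdx1 at -0.04 ± 0.09 and Pgrmc1 at -0.03 ± 0.09 (SE). Cyb5b was at 0.23 ± 0.07 (SE; limma adjusted p = 0.149), with all nephrectomized values above the sham values. Alas1, the first enzyme of haem synthesis, was at 0.32 ± 0.08 (SE; limma adjusted p = 0.0857), reading 5.09, 5.04, 5.18 and 5.28 in nephrectomized kidneys, against 4.83, 4.75, 4.76 and 4.96 in sham kidneys. Hmox1, which breaks haem down, was at -0.72 ± 0.13 (SE; adjusted p = 0.0519), reading -1.45, -1.60, -1.59 and -1.64 in nephrectomized kidneys, against -0.49, -0.77, -1.02 and -1.13 in sham kidneys. Both genes were without overlap, in opposite directions, and 11.1% of all features were without overlap.

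Of 17 tested regulators of P450 genes 1 rose and 1 fell, against 0.75% and 0.287% of all features. An unadjusted limma p under 0.05 was found in 4 of the 17, against 16% of all features. Nr0b2, the small heterodimer partner that represses bile acid P450 genes, rose by 0.38 ± 0.07 (SE; limma adjusted p = 0.0460; 0.0699 with slide as a block), reading 2.30, 2.36, 2.13 and 2.32 in nephrectomized kidneys, against 1.85, 1.84, 1.96 and 1.92 in sham kidneys. Dbp, a PAR bZIP clock output factor, fell by 0.70 ± 0.12 (SE; adjusted p = 0.0429; 0.0512 with slide as a block), reading 2.96, 3.22, 2.96 and 2.86 in nephrectomized kidneys, against 3.89, 3.69, 3.80 and 3.41 in sham kidneys. Neither gene's groups overlapped, and 11.1% of all features were without overlap. The call was lost in 16 of 23 alternatives for Nr0b2, with all 8 that left out 1 array among them (limma adjusted p of 0.0672 to 0.134), and in 12 of 23 for Dbp, with 7 of those 8 (0.0446 to 0.123). Hnf4a, the hepatocyte nuclear factor of proximal tubule and liver, was at -0.24 ± 0.05 (SE; adjusted p = 0.0740), the pregnane receptor Nr1i2 at -0.11 ± 0.06, the PPAR alpha gene Ppara at 0.18 ± 0.12 and the glucocorticoid receptor Nr3c1 at -0.02 ± 0.09.

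Of 8 tested bile acid and steroid partners 1 rose, against 0.75% of all features. Srd5a1, a steroid reductase that inactivates or activates steroids by saturating their ring, read -0.10, -0.13, -0.14 and -0.15 in nephrectomized kidneys, against -0.44, -0.79, -0.60 and -0.76 in sham kidneys. It rose by 0.52 ± 0.08 (SE; limma adjusted p = 0.0385; 0.0555 with slide as a block), with nephrectomized values close together and all above the sham values. The call was lost in 12 of 23 alternatives, with 7 of the 8 that left out 1 array among them (limma adjusted p of 0.0347 to 0.107). Hsd11b2, which inactivates glucocorticoids in the distal nephron, was at 0.05 ± 0.08, Hsd11b1 at -0.35 ± 0.21 and Amacr at 0.08 ± 0.13 (SE). Of 13 tested conjugating enzymes none passed the test, against 1.04% of all features. Of the 13, 11 were positive, against 52.5% of all features, and the median was 0.07. The negative ones were Sult1a1 at -0.18 ± 0.13 and Ugt1a6 at -0.02 ± 0.15 (SE). Gstm1 was at 0.53 ± 0.12 (adjusted p = 0.0740) without overlap, and Gsta1, Gstp1 and Gsta3 at 0.24, 0.32 and 0.21.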

How the data were processed

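For each array the authors deposited the output of Agilent Feature Extraction 10.5.1.1. Its processed intensity had background and spatial trend removed on that array alone, with no scaling across arrays, per the file headers. A series table, also deposited, gives log2 values that correlated with the scanner values, scaled to the 75th percentile and centred on each probe's median, at over 0.9999 with a slope of 1.00. The median of its columns was 0.00123, 0.0124, -0.000916 and 0.0153 for nephrectomized replicates 1 to 4 and -0.0145, -0.00231, -0.00103 and -0.00968 for sham replicates 1 to 4, and its scale, centring and direction were settled by this comparison.

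From 45018 spots per array, 1639 control spots and outlier spots were left out and spots of 1 probe averaged. Log2 signals were reduced by each array's 75th percentile. Probes well above background on at least 4 arrays were kept (25250, of which 25228 had values on all arrays). Probes were named through RefSeq (18713 matched), and accessions without a gene symbol were kept as features of their own. The brightest probe stood for each gene or unnamed accession. This gave 20935 features, 10240 of them with a gene symbol. The 2 groups entered limma 3.58.1 (R 4.3.3) without covariates, and p-values were adjusted by Benjamini-Hochberg across the features tested, with calls at 0.05. The test was also tried on data simulated from the means and spreads of these features. Replicate numbers did not pair the samples, since deviations of same-numbered arrays correlated at 0.14, 0.01, -0.06 and -0.21. Members, lists and the rule for named genes were chosen with earlier results of these data known. That rule took every P450 gene past the threshold, with an unadjusted p under 0.05 or without overlap, the 3 brightest of each family group, 19 P450 genes regardless of outcome, and called or bright companions. Of the 19, Cyp2c23 was not among the genes named on the array. Where the planned normexp correction named a mean spot signal, the median spot signal was used. The number of arrays limits the precision.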

Additional observations from a re-analysis of the deposited data

Results flagged for a closer look

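In 4 P450 genes 1 array lay far from the other 3 of its group, by a gap above Dixon's 95% critical value for 4 samples. Among the 64 groups examined chance alone flags about 1 in 20. Cyp7b1 was at -1.69 in nephrectomized replicate 2, against -3.27 to -3.24 in the other nephrectomized kidneys. Cyp4f1 was at 6.39 in nephrectomized replicate 4, against 6.58 to 6.61 in the others. In sham kidneys, Cyp4a8 was at 5.37 in replicate 3, against 5.85 to 5.88, and Cyp4f17 at -3.73 in replicate 4, against -4.40 to -4.33.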

How the results depend on the processing

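Counts past the threshold, and the size of some P450 values, depended on the processing. The main setting called 0 P450 genes, 217 features and 3 companion genes. P450 genes were called after quantile normalization (1, Cyp2e1), normexp (2, Cyp2f4 and Cyp26b1), detection on all 8 arrays (1, Cyp2f4), trend and robust variance (2, Cyp2e1 and Cyp2f4) and array weights (1, Cyp26b1). All features called numbered 502 with array weights, 530 with trend and robust variance, 393 with detection on all 8 arrays, 20 with no filter, 100 with slide as a block and 0 on slide 1 or slide 2 alone. Companion genes called numbered 5, 7, 4, 0, 1 and 0 in these settings. Leaving out 1 array gave 0 P450 genes, 22 to 198 features and 0 to 2 companion genes. Replicate numbers did not pair the samples, and with the replicate block 0 P450 genes, 10 features and 0 companion genes were called.

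Of 732 values of single genes under 23 alternatives, 40 had the opposite sign, in 13 genes, none of them called. Cyp4a8 was -0.0437 after quantile normalization, -0.0425 after cyclic loess, -0.11 after normexp, -0.0697 with array weights and -0.0293 on slide 2. After normexp Cyp1a1 was 0.10, Cyp2b15 0.0491, Cyp2b2 0.0380, Cyp2c11 0.11, Cyp39a1 0.0142, Cyp4a2 -0.0067 and Cyp4b1 0.0145, and with array weights Cyp2c11 was 0.0636. On slide 1 Cyp1a1 was 0.85, Cyp20a1 -0.0179, Cyp39a1 0.0543, Cyp4b1 0.50 and Cyp4f6 0.0176. On slide 2 Cyp2c11 was 0.0427, Cyp2d5 -0.43, Cyp2j4 -0.13 and Cyp2s1 -0.0179. Leaving out 1 array gave -0.11 to 0.0499 for Cyp2c11, -0.0652 to 0.0217 for Cyp4f6, -0.0512 to 0.0487 for Cyp20a1, -0.0419 to 0.22 for Cyp4a2, -0.11 to 0.0758 for Cyp4a8, -0.53 to 0.34 for Cyp1a1, -0.22 to 0.14 for Cyp4b1 and -0.0367 to 0.68 for Cyp2d5. Cyp11b3, Cyp39a1, Cyp4f17 and Cyp4f4 were not tested with detection on all 8 arrays. Sizes also moved without a change of sign, from -1.85 to -0.24 for Cyp4f4, -0.37 to -0.0125 for Cyp2d4 and 0.0450 to 1.17 for Cyp7b1 over all alternatives. The cause of these differences was not tested. Dim signals near background limit the values of Cyp4f4, Cyp4f17, Cyp11b3 and Cyp39a1.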
